A study of Mus musculus with 36 samples.

Results

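Tuft cells are rare chemosensory epithelial cells, and 7 genes that mark them were followed here by the histone marks at their starts: Dclk1, Pou2f3, Trpm5, Gfi1b, Avil, Ptgs1 and Alox5ap. They were chosen by name, with earlier results of these data known, from the 21938 protein-coding genes of the mouse annotation. The normal mouse pancreas holds very few tuft cells, and they are known to appear when acinar cells turn into duct-like metaplasia. Pou2f3 is the transcription factor that tuft cells need in order to form, and Gfi1b is a transcriptional repressor that they share with megakaryocytes and red cell precursors. Trpm5 is the cation channel of taste-type signaling, Dclk1 is a microtubule-associated kinase, and Avil (advillin) bundles actin in the apical tuft. Ptgs1 (cyclooxygenase 1) makes prostaglandin precursors, and Alox5ap presents arachidonic acid to 5-lipoxygenase for leukotriene synthesis. K4me3 on histone H3 sits at the starts of active or poised genes, and K27me3, which the methyltransferase EZH2 writes, is linked to repression. Both on the same region can hold a gene poised.

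The marks were mapped by ChIP-Seq in whole pancreas from 6 mice, 3 control and 3 EZH2ΔSET, 22 days after tamoxifen. All were 2 to 4 months old at gavage. The study used male and female mice for each genotype, and sex was not considered here. Control mice (labeled Wildtype) had intact EZH2, and EZH2ΔSET mice (Mist1creERT/+EZH2ΔSET) had lost its catalytic SET domain. In the study a control mouse may be C57BL/6 or carry Mist1creERT alone, and the labels do not say which, so the groups may also differ at the Mist1 allele. Mist1creERT directs recombination to acinar cells and the cells that derive from them, whereas ducts, islets and immune cells of the same unsorted tissue are not targeted. The study describes the histology at this time as unchanged, so these samples hold no visible metaplasia. Among 8 gastric-type metaplasia genes, K4me3 was called at Tff2 alone, in all 6 mice, and not at Muc5ac, Muc6, Tff1, Gkn1, Gkn2, Gkn3 or Cldn18 in any mouse. The 9 acinar markers, among them Ptf1a and Cpa1, all had K4me3 in all 6 mice. In tissue of mixed cells, a mark in fewer cells and a weaker mark in every cell cannot be told apart.

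A gene was called for a mark in a mouse when a peak overlapped, by at least 1 bp, the stretch within 3 kb on either side of any annotated transcript start. Coverage is the share of those stretches, or of the gene body, that lies under peaks. The deposited lists give positions only, with no heights and no read depth, so a missing peak may be a mark below the caller's limit. Control replicate 2 stood apart. It had 17400 K4me3 peaks against 24209 to 25886 in the other mice, and 21420 K27me3 peaks against 28803 to 31274. K27me3 was called at 24.6% of genes in it against 10.6% to 15.6%, and 9.77% of its K27me3 peaks overlapped K4me3 against 0.751% to 2.73%. It was also the mouse with K4me3 at the lymphocyte genes Cd3e and Cd79a, neither of which was called in the other 5. Of 6 leukocyte markers it had K4me3 at 3, where EZH2ΔSET replicate 2 had 1 (Ptprc) and the others 0, and the summed coverage of the 6 was 97.7 percentage points against 0 to 2.82. Of the 9 acinar markers, K27me3 was called in control replicate 2 at 4 (Ptf1a, Rbpjl, Nr5a2 and Gata4). Differences at the starts of the 7 genes that this mouse moved are given with and without it. The calls found in it alone are named for the 7 genes and the other tuft cell genes.

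Of the 7 genes, 5 have promoter sequence in the RefSeq set used here (GRCm38.p6, 250 bases before to 50 after the start), with 6 promoters in all. Pou2f3 and Alox5ap have no entry. Shown are the promoter of Ptgs1, the only gene with K4me3 at its first start, both promoters of Dclk1, where K27me3 was found, and the promoter of Gfi1b beside the region upstream of it that carried K4me3. Capitals mark CpG dinucleotides, and each sequence runs 5′ to 3′ on the strand of its gene.
Ptgs1, chr2:36230176-36230475, plus strand: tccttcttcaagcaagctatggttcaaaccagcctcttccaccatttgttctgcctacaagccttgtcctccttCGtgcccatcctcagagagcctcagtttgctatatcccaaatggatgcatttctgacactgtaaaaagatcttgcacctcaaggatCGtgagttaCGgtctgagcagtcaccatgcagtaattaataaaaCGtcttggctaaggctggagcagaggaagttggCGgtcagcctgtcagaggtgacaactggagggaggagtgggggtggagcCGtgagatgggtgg
Dclk1 long form, chr3:55242114-55242413, plus strand: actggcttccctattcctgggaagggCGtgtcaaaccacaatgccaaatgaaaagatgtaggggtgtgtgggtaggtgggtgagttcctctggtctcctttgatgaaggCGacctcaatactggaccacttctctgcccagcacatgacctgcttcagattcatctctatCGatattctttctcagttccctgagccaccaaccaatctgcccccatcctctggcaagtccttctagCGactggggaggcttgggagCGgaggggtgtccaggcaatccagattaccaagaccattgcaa
Dclk1 short form, chr3:55461478-55461777, plus strand: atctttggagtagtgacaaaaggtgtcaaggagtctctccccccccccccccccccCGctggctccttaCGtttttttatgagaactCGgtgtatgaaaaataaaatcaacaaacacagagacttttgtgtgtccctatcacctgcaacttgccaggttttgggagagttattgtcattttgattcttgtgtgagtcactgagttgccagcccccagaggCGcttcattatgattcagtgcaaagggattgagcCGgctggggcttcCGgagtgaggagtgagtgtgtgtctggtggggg
Gfi1b, chr2:28621933-28622232, minus strand: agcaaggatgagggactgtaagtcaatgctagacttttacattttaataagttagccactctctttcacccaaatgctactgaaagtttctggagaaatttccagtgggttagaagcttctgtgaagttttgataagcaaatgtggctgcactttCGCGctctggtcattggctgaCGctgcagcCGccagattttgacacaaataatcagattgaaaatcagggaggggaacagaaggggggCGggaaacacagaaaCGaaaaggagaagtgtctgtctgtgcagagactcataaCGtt
Upstream of Gfi1b (GRCm38), chr2:28630469-28630768, minus strand: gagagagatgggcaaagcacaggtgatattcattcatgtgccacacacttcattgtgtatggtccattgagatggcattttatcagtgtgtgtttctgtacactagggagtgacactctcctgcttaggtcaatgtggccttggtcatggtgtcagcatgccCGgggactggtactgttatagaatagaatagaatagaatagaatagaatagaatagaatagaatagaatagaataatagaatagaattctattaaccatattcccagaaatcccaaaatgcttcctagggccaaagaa

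The CpG content of these promoters was near or below the median of 7 over all 32851 promoters in the set. Ptgs1 had 6 CpG in its 300 bases, Gfi1b 7, the long and short Dclk1 promoters 5 and 6, Trpm5 5 and Avil 2. Promoters of genes with K4me3 in all 6 mice had a median of 20 (quartiles 12 and 29), and those of genes without K4me3 in any mouse had a median of 3 (quartiles 1 and 6). With 6, the Ptgs1 promoter was at the upper quartile of the unmarked promoters and below the lower quartile of those with K4me3 in all 6 mice. The upstream Gfi1b region held 1 CpG and a tract of repeated agaat units. The octamer ATGCAAAT, the sequence that POU factors such as Pou2f3 bind, was searched on both strands and was found in none of the 6 promoters. It occurs in 1.74% of the promoters in the set.

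K4me3 divided the 7 genes. It was called at Ptgs1 in 6 of 6 mice and at Pou2f3 in 5 of 6, and at Dclk1, Trpm5, Gfi1b, Avil and Alox5ap in none. Of all protein-coding genes, 57.4% had K4me3 in all 6 mice, 60.8% in at least 5 and 34.1% in none. K27me3 was called at Dclk1 in 4 mice, and at Pou2f3 and Ptgs1 in control replicate 2 and no other mouse. It was not called at Trpm5, Gfi1b, Avil or Alox5ap in any mouse. Of all genes, 11.8% had K27me3 in at least 4 mice and 66.7% in none. With neither mark at a start in any mouse, Trpm5, Gfi1b, Avil and Alox5ap belonged to a group that holds 17.4% of all genes. Of the 7 genes, Ptgs1 in control replicate 2 was the only case of both marks in the same mouse.

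**Figure D1:**
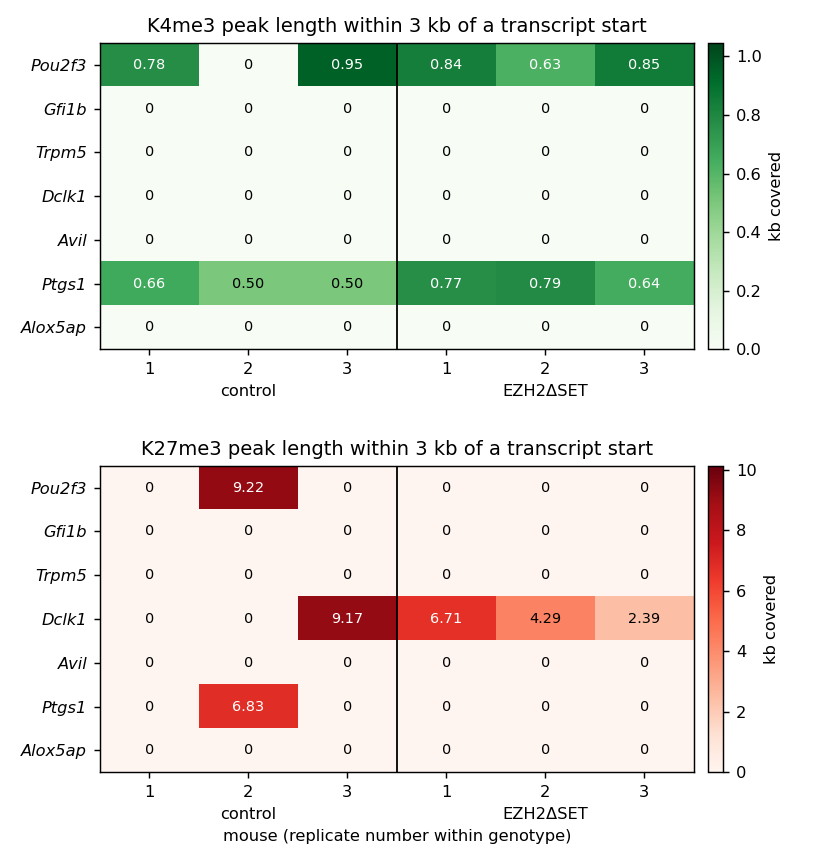
Length of K4me3 (top) and K27me3 (bottom) peaks, in kb, within 3 kb of any transcript start of the 7 tuft cell genes (rows) in each of the 6 mice (columns, by genotype and replicate). K4me3 fills the rows of Pou2f3, except in control replicate 2, and of Ptgs1, K27me3 appears at Dclk1 in 4 mice, and 4 rows are at 0 in both panels.

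Ptgs1 lies on the plus strand at chr2:36230426-36252272 (mm10). Its K4me3 peak covered 656, 501 and 501 bp in the 3 control mice and 771, 786 and 643 bp in EZH2ΔSET mice. Every peak lay over or just after the first start, and the stretch shared by all 6 mice ran from 36230526 to 36230890, downstream of the printed promoter. The peaks were narrow. At 501 bp, 2 of them had the smallest width in the lists, and only 7.32% to 25.2% of the K4me3 peaks of the same library were as narrow or narrower. The groups overlapped. Mean coverage of the start windows was 3.06% ± 0.496 (SD, n = 3 mice) in control and 4.06% ± 0.435 in EZH2ΔSET tissue, and coverage of the gene body was 2.33% ± 0.0608 and 2.40% ± 0.331. In control replicate 2 a K27me3 peak of 14529 bp also covered the start, from 10.7 kb upstream to 3.83 kb downstream. The next protein-coding genes are Mrrf, with K4me3 in 6 mice, and the olfactory receptor gene Olfr338, with K27me3 in 5.

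Pou2f3 lies on the minus strand at chr9:43123939-43210369 and has 3 annotated starts. K4me3 sat at the second start (43205755) and not at the first (43210369) at the 5′ end of the gene. The third start had none either. The peak covered 776, 0 and 951 bp in control replicates 1 to 3, and 836, 629 and 849 bp in EZH2ΔSET mice. All 5 peaks shared the stretch from 43205686 to 43206314, which holds that start. Only 14.5% to 32.1% of the K4me3 peaks of the same library were as narrow or narrower. Mean coverage was 3.46% ± 3.05 (SD, n = 3) in control and 4.64% ± 0.743 in EZH2ΔSET tissue, and the groups overlapped. The wide spread in control came from replicate 2, which lacked the peak and instead had K27me3 over 15194 bp across both of these starts. Another K27me3 peak of 15877 bp overlapped the 3′ end of the gene and extended past it to the start of the neighboring gene Tmem136. In all, 16500 bp of the Pou2f3 body lay under K27me3 in this mouse. Of the other control mice, at 776 and 951 bp, 1 was within the range of EZH2ΔSET and 1 above it. Of all genes, 11.6% had K27me3 at a start in control replicate 2 and in no other mouse, as Pou2f3 and Ptgs1 did. The neighbors Tmem136 and Oaf had K4me3 in 6 mice.

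Gfi1b, on the minus strand at chr2:28609450-28621982, had no peak of either mark at its starts or in its body. A K4me3 peak lay upstream of it, 7.46 to 8.25 kb from the nearest start, in 5 of 6 mice, and control replicate 2 again lacked it. The peaks were 771 and 1312 bp wide in control replicates 1 and 3, and 1039, 1641 and 1548 bp wide in EZH2ΔSET mice. They shared 771 bp (28630233 to 28631003), the middle 300 bases of which are printed above. No annotated start of any gene, coding or not, lay within 500 bp of these peaks, and the flanking genes Gtf3c5 and Tsc1 had their own K4me3 in 6 mice. This region was singled out after its peaks were seen, and no test was made on it. The nearest K27me3 peak was 143 to 416 kb from a Gfi1b start.

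Trpm5, on the minus strand at chr7:143069153-143094642, carried K4me3 over its 3′ end in all 6 mice and none at its start. The peaks were 1959 to 2164 bp wide and covered the start of Tssc4, a gene on the opposite strand that overlaps the end of Trpm5. They covered 5.50% ± 0.546 (SD, n = 3) of the Trpm5 body in control and 5.59% ± 0.198 in EZH2ΔSET mice. They ended 3.35 to 3.63 kb short of the nearest Trpm5 start, which belongs to a transcript outside the basic annotation, and so a window of 5 kb would have called Trpm5 in all 6 mice. The neighbors Cd81 and Kcnq1 had K4me3 in 6 mice and no K27me3. Trpm5 itself had no K27me3 within 86.1 kb of a start in any mouse.

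**Figure D2:**
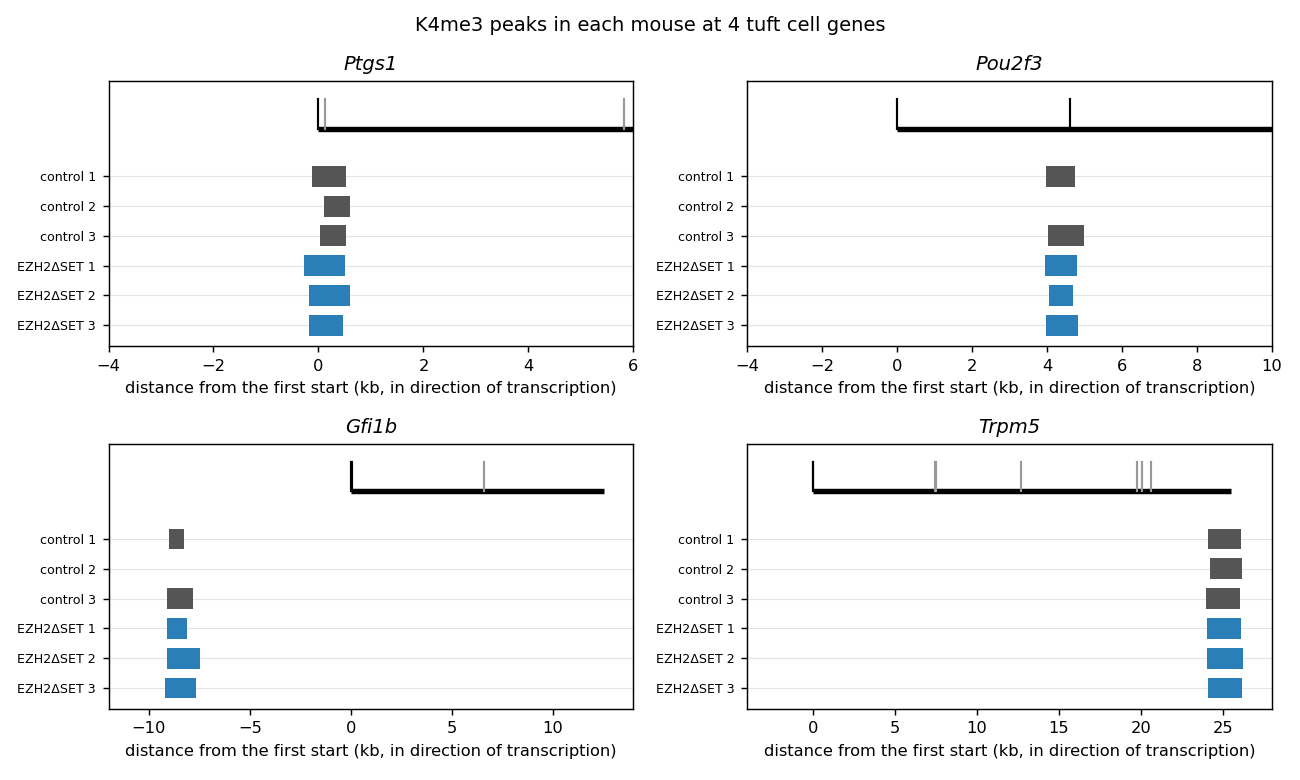
K4me3 peaks (bars, colored by genotype) in each of the 6 mice at Ptgs1, Pou2f3, Gfi1b and Trpm5, by distance in kb from the first annotated start in the direction of transcription. The black line is the gene and the ticks are starts (black in the basic annotation, gray outside it). Peaks lie at the first start of Ptgs1, at the second start of Pou2f3, upstream of Gfi1b and at the 3′ end of Trpm5.

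Avil, on the plus strand at chr10:127000709-127020994, and Alox5ap, on the plus strand at chr5:149264767-149288153, had no peak of either mark at a start or in the gene body in any mouse. The K4me3 peak nearest to a start was 13.4 to 17.3 kb away for Avil and 18.4 to 25.4 kb away for Alox5ap. The nearest K27me3 peak was 32.9 to 390 kb away for Avil and 266 to 539 kb away for Alox5ap. Their neighbors were marked. Ctdsp2, Tsfm and Eef1akmt3 around Avil and Uspl1 beside Alox5ap had K4me3 in 6 mice, and Medag, the other neighbor of Alox5ap, had it in 5.

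Dclk1 was the one gene of the 7 with recurrent K27me3. It spans 296705 bp on the plus strand at chr3:55242364-55539068, and its 12 starts fall mainly at the long form (55242364) and, far downstream, at the short form (55461728 to 55461972). K27me3 covered 0, 0 and 9174 bp of its start windows in control replicates 1 to 3, and 6715, 4288 and 2394 bp in EZH2ΔSET mice. It was thus called in 1 of 3 control and 3 of 3 EZH2ΔSET mice, and the control mouse with a call had the highest coverage of all. The groups overlapped. Mean coverage of the start windows was 8.70% ± 15.1 (SD, n = 3) in control and 12.7% ± 6.16 in EZH2ΔSET tissue. Of the gene body, K27me3 covered 0, 0 and 37273 bp in control mice and 32552, 35335 and 23163 bp in EZH2ΔSET mice, in 6 peaks in control replicate 3 and in 6, 5 and 3 peaks in EZH2ΔSET replicates 1 to 3. As a share of the body this was 4.19% ± 7.25 and 10.2% ± 2.15. The EZH2ΔSET mice, in which acinar cells had lost the catalytic domain, thus still had K27me3 peaks over Dclk1 in whole tissue.

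Within Dclk1 the K27me3 peaks of at least 3 mice coincided at 3 places. The longest shared stretch, 55462189 to 55472358, began just downstream of the short starts, and the 4 mice with K27me3 all had a peak there (1 control and 3 EZH2ΔSET). Another, 55323501 to 55328501, lay 81.1 to 86.1 kb into the gene, away from the Dclk1 starts, and the same 4 mice had a peak that overlapped it. In EZH2ΔSET replicate 3 that peak came within 500 bp of a start of Gm19817. The last, 55487332 to 55488390, held peaks of 3 mice (1 control and 2 EZH2ΔSET). At the long start K27me3 was found in control replicate 3 alone. K4me3 was absent from every Dclk1 start. Narrow K4me3 peaks of 640 to 880 bp lay in an intron in 4 mice, 9.90 to 10.2 kb from the nearest Dclk1 start and at the start of the unclassified transcript Gm42608. Peaks of 501 bp lay in an upstream intron in 3 mice. The overlapping gene Gm21954 had K27me3 in 3 mice. The flanking Nbea had K4me3 in 6, and Sohlh2, on the other side, had neither mark.

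**Figure D3:**
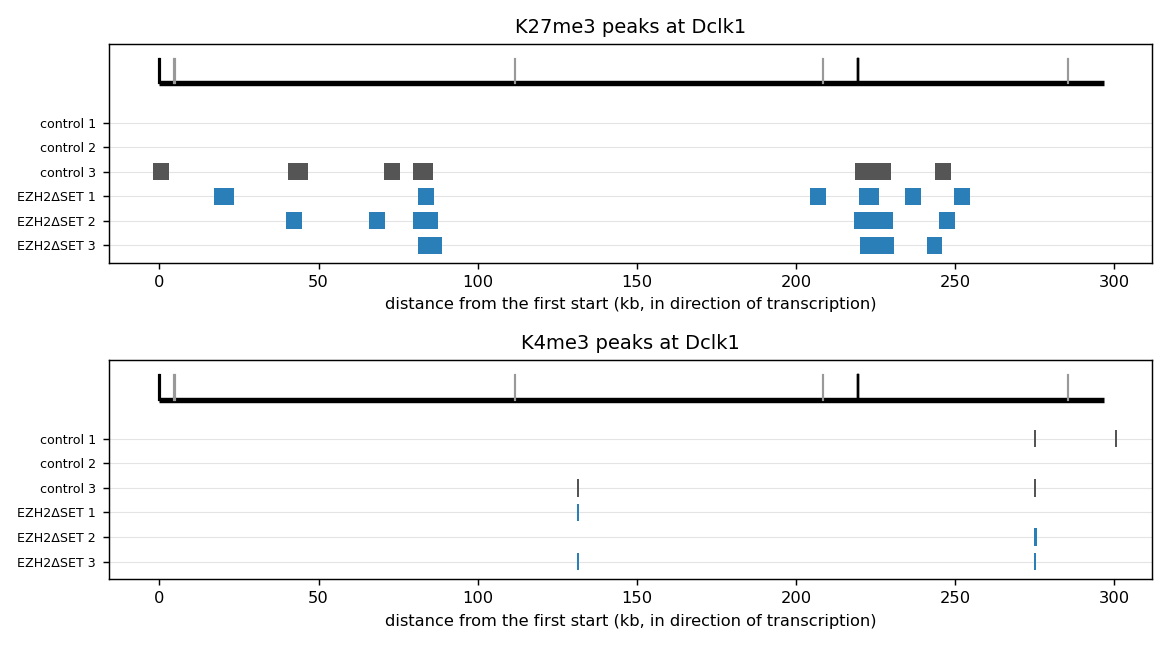
K27me3 peaks (top) and K4me3 peaks (bottom) over Dclk1 in each of the 6 mice, by distance in kb from the first start. The black line is the gene and the ticks are starts (black in the basic annotation, gray outside it). K27me3 recurs 81.1 to 86.1 kb into the gene and downstream of the short starts in 4 mice, control replicates 1 and 2 have none, and K4me3 appears only as narrow peaks inside or beyond the gene.

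To examine whether loss of EZH2 activity altered the marks, coverage in EZH2ΔSET and control mice was compared by exact two-sided permutation tests over all 21938 genes. With 3 mice against 3 the smallest p is 0.1, so a difference was called when the groups did not overlap. None of the 7 genes separated the groups for either mark, at starts or over gene bodies. Of all genes, 7.43% did so in K4me3 at starts, 8.53% in K4me3 over bodies, 0.852% in K27me3 at starts and 1.45% in K27me3 over bodies. For values without ties, a random division of the mice would separate the groups with a probability of 0.1. None of these shares exceeded that. No gene passed an adjusted p of 0.05 by the exact permutation test with Benjamini-Hochberg adjustment, and at this number of mice none could. Among the 1630 genes separated in K4me3 at starts, coverage was higher in EZH2ΔSET at 1323 and lower at 307. For K27me3 at starts the numbers were 163 and 24. Control replicate 2, with the fewest peaks of both marks, is among the control mice, and its part in these numbers was not tested.

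At Pou2f3, K4me3 coverage was 1.18 percentage points higher in EZH2ΔSET than in control mice (exact p = 0.8). Without control replicate 2, which lacked the peak, the difference was -0.555 points (exact p = 0.6). At Ptgs1 it was 1.00 points (exact p = 0.2), the lowest p of the 7 genes for K4me3 at starts. Without control replicate 2 it was 0.858 points (exact p = 0.3). Of the Ptgs1 peaks, 643 bp in EZH2ΔSET replicate 3 fell below the 656 bp of control replicate 1, and these were the values at which the groups overlapped. K27me3 at starts differed by -18.5 points at Pou2f3 and by -12.6 points at Ptgs1. Control replicate 2 alone had K27me3 there, so neither difference remained without it. For K27me3 at the Dclk1 starts the difference was 4.00 points (exact p = 0.8). It became -0.345 points without control replicate 1 or 2 (exact p = 0.9 for either) and 12.7 points without control replicate 3 (exact p = 0.2). Over the Dclk1 body it was 6.04 points (exact p = 0.4), 3.95 points without control replicate 1 or 2 (exact p = 0.7), and 10.2 points without control replicate 3 (exact p = 0.1, the smallest that 2 mice against 3 allow). Control replicate 3 alone thus kept the groups from separating at Dclk1. Over the Trpm5 body K4me3 differed by less than the spread between mice (exact p = 0.8). Control replicate 2, which has K4me3 at lymphocyte genes, is 1 of the 2 control mice without K27me3 at Dclk1, and the part of those cells in the difference was not tested.

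**Figure D4:**
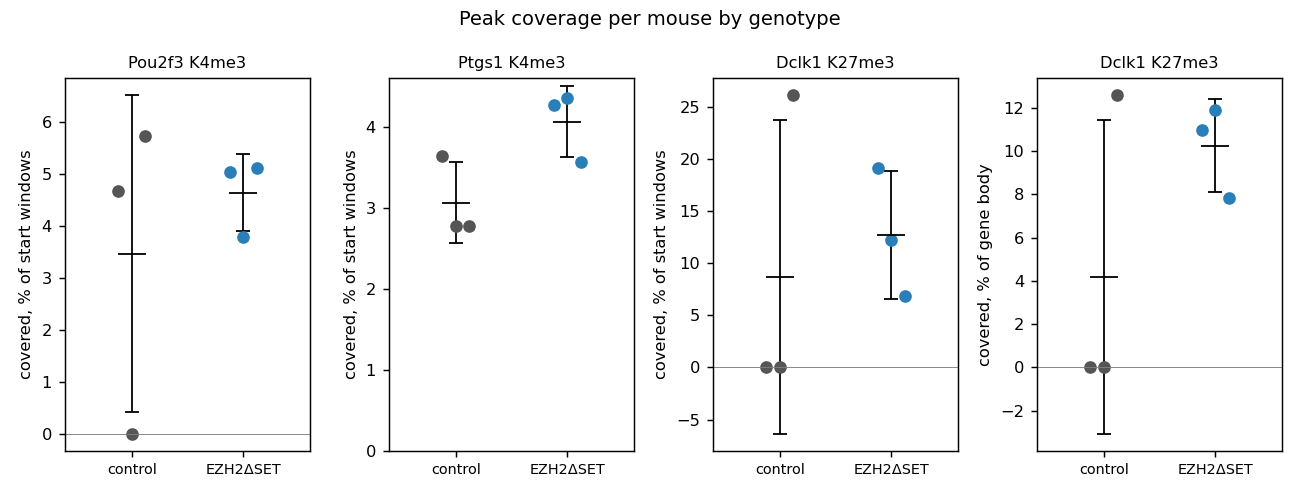
Share (%) of the start windows covered by K4me3 at Pou2f3 and Ptgs1 and by K27me3 at Dclk1, and share of the Dclk1 body covered by K27me3, for each mouse (points) by genotype, with mean ± SD of 3 mice. The genotypes overlap in every panel, control replicate 2 is at 0 for Pou2f3, and control replicates 1 and 2 are at 0 for Dclk1.

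The other genes of the tuft cell program were read in the same way, from a list of 45 genes with known roles. K4me3 was called in at least 5 mice at 27 of them and in no mouse at 12, K27me3 in at least 4 mice at 5, and neither mark in any mouse at 7. These shares, 60.0%, 26.7%, 11.1% and 15.6%, lie near the 60.8%, 34.1%, 11.8% and 17.4% of all genes, so the counts do not set the list apart. Hmx2 alone had K4me3 in at least 5 mice together with K27me3 in at least 4. The list also holds genes that acinar cells, ducts or blood cells use, so its calls are not those of tuft cells alone. Each call counts any annotated start of the gene. Whether a peak lay at the start of an adjacent gene was checked for the 7 genes only, not for this list or the cell type markers.

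Of the 9 taste-type signaling genes, 3 had K4me3 in at least 5 mice, beside the 60.8% of all genes. The genes Gnat3 (gustducin), Gnb3, Tas1r2, Tas1r3 and Rgs13 had neither mark in any mouse, as Trpm5 did at its start. Gng13 had K27me3 in 1 mouse, control replicate 2, and no K4me3. Those with K4me3 were Itpr3 (the calcium channel of the endoplasmic reticulum), Tas1r1 and Plcb2 (phospholipase C beta), each in 6 mice, and Plcb2 also had K27me3 in control replicate 2 alone (8.06% of the start windows).

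Among 8 regulators, Spib, Runx1, Sox4 and Ehf had K4me3 in 6 mice, and Ascl2 and 1810046K07Rik, the mouse gene of a Pou2f3 coactivator, in 5. Runx1 also had K27me3 in 3, and Ascl2 had it in control replicate 2 alone, over 100% of the start windows. The homeobox genes Hmx2 and Hmx3 had K27me3 in 5 mice each, with K4me3 in 5 and 1. At Spib, a lymphoid factor as well, K4me3 covered 60.3% of the start windows in control replicate 2 against 2.37% to 5.75% in the other mice. This is the mouse with K4me3 at lymphocyte genes, and the part of those cells in this result was not tested.

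Of 7 other eicosanoid genes, which act around Ptgs1 and Alox5ap, 4 had K4me3 in at least 5 mice, a share no higher than the 60.8% of all genes. Ltc4s (leukotriene C4 synthase), Ptgs2 (cyclooxygenase 2) and Pla2g4a, which frees arachidonic acid, had it in 6 mice each, Ptges in 5 and Alox5, the enzyme that Alox5ap serves, in 4. Alox5 had K27me3 in control replicate 2 alone (22.2% of the start windows). Hpgds, the hematopoietic prostaglandin D synthase, had K27me3 in 5 mice and K4me3 in 1, and Ptgds had K4me3 in 1. In both cases this was control replicate 2.

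Among 8 effectors and receptors, the receptors Il17rb, Il4ra and Il13ra1 and the cytokine gene Tslp had K4me3 in 6 mice, with K27me3 in 2 at Tslp and in 3 at Il13ra1, control replicate 2 among them at both, and Sucnr1, the succinate receptor, had K4me3 in 5. The tuft cell cytokine gene Il25 had no K4me3 and had K27me3 in 1 mouse, control replicate 2, and Chat, which makes acetylcholine, had K27me3 in 4 and no K4me3. Ffar3 had neither mark. The brush border genes Espn and Krt18 had K4me3 in 6 mice and Vil1 (villin) in none. In control replicate 2 alone, K27me3 covered 100% of the start windows of Krt18 and 10.7% of those of Espn. Of 10 signaling genes shared with blood cells, Ptpn6, Fyb, Plcg2, Lyn, Pik3cg and Cd24a had K4me3 in 6 mice, Inpp5d in 2 (control replicate 2 and EZH2ΔSET replicate 2) and Matk in control replicate 2 alone. K27me3 was called at Bmx in 5 mice and at Siglecf in 2, and neither had K4me3. The number of these 10 genes with K4me3 was 8 in control replicate 2 and 6 to 7 in the other mice. Of all genes, K4me3 was called at 60.4% in control replicate 2 and at 62.1% to 62.7% in the others.

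**Figure D5:**
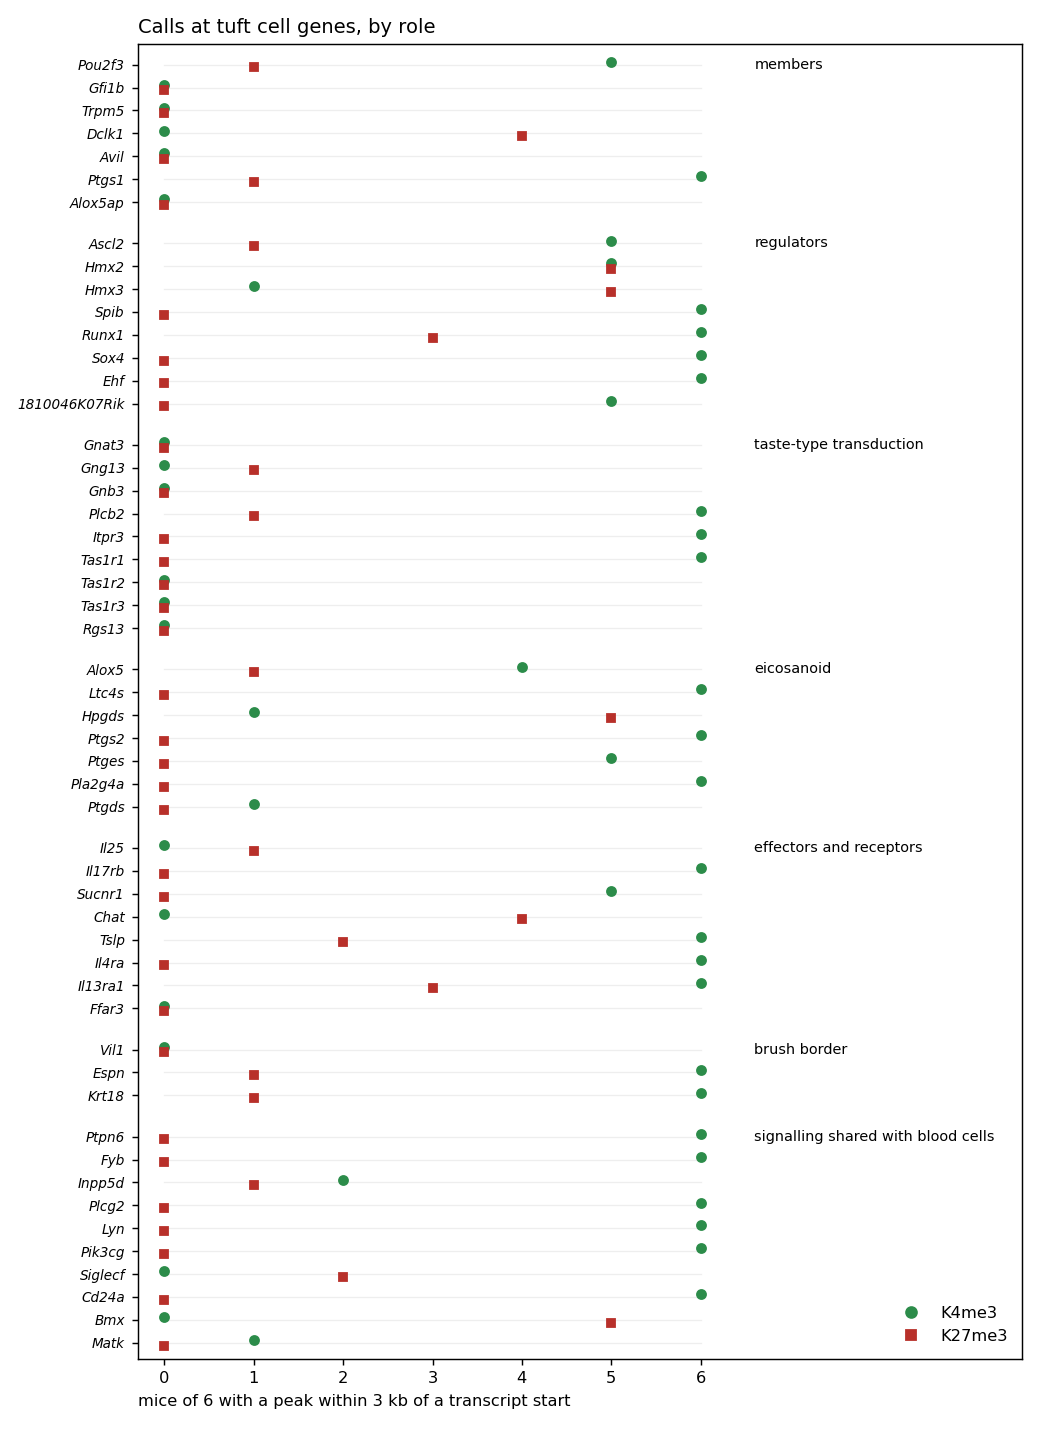
Number of mice, of 6, with a K4me3 peak (circles) or a K27me3 peak (squares) within 3 kb of a transcript start, for the 7 genes (members) and 45 other tuft cell genes grouped by role. Of 9 taste-type signaling genes, 5 are at 0 for both marks, and the genes with K27me3 in at least 4 mice are Dclk1, Hmx2, Hmx3, Hpgds, Chat and Bmx.

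Of the 45 genes, 7 separated the groups in K4me3 coverage of the start windows, 5 higher and 2 lower in EZH2ΔSET, beside the 7.43% of all genes given above, and 0 did so in K27me3. Genes without K4me3 in any mouse cannot separate, and they made up 26.7% of the list and 34.1% of all genes. The bases of the count and the share are therefore unlike, and the count was not tested. For each of the 7 the exact permutation p was 0.1, the smallest possible, and the adjusted p was 1. The difference was greatest at Sucnr1 with all 6 mice, and at Ascl2 without control replicate 2. At Sucnr1 K4me3 covered 12.9%, 0% and 10.4% of the start windows in control replicates 1 to 3, and 19.9%, 17.4% and 20.3% in EZH2ΔSET mice. The mean difference was 11.4 points, and 7.55 points without control replicate 2. At Cd24a, a surface glycoprotein gene, it was 8.77 points, and 4.14 points without that mouse. At 1810046K07Rik coverage was 11.7%, 0% and 12.3% in control against 12.9%, 13.9% and 13.3% in EZH2ΔSET mice, a difference of 5.36 points that was 1.35 points without control replicate 2. At Ptgs2 it was 17.1%, 7.95% and 16.3% against 18.8%, 17.6% and 17.5%, and the difference of 4.18 points was 1.26 points without that mouse. Control replicate 2 was the lowest of the 6 mice at Sucnr1, Cd24a, 1810046K07Rik and Ptgs2. At Sox4 the difference was 1.48 points, and 1.98 points without it. Lower coverage in EZH2ΔSET mice was found at Ascl2 (-8.29 points, and -7.91 points without control replicate 2) and at Plcb2 (-3.43 and -0.962 points). At Plcb2 control replicate 2 was the highest, at 11.9% against 5.15% and 3.90% in the other control mice. The groups still did not overlap in any of the 7 genes without control replicate 2, but other settings ended the separation at 5 of them. The mean differences did not all shrink there. At Cd24a the groups overlapped with a window of 1 kb (1.34 points, exact p = 1) or only the 5′ end of the gene (2.90 points, exact p = 0.9). At Sox4 they overlapped with a window of 5 kb (1.61 points, exact p = 0.7) or merged peaks (12.3 points, exact p = 1). At 1810046K07Rik the difference was 0 points with only the 5′ end or the basic starts. At Plcb2 the groups overlapped with only the 5′ end (-10.9 points), the basic starts (-10.8 points), and K4me3 peaks of at least 1 kb or equal numbers of the widest peaks (-3.98 points in both), with an exact p of 1 in each. At Ascl2 they overlapped with peaks of at least 1 kb (-5.80 points, exact p = 1) or equal numbers (-10.8 points, exact p = 0.4). At Sucnr1 and Ptgs2 the groups did not overlap under any setting that was run.

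The genes with promoter coverage most like that of Pou2f3 over the 12 values of both marks were Ropn1, at a Euclidean distance of 2.44 percentage points, and Celf5, at 4.05. For Ptgs1 they were Cyp4f39, at 2.96, and Ttc6, at 3.82, and for Dclk1 they were Rbfox1, at 12.5, and Olfr1264, at 14.5. Trpm5, Gfi1b, Avil and Alox5ap had all 12 values at 0 and so matched each other and the other genes with neither mark, 3809 genes each. Other cells that use some of these genes were read by their markers. The megakaryocyte and platelet genes Pf4, Gp9 and Ppbp and the mast cell genes Cpa3, Tpsb2, Fcer1a and Mcpt4 had no K4me3 in any mouse, nor did Gata1 of red cell precursors. Of the other markers, K4me3 in at least 5 mice was found at 8 of 8 duct, 3 of 7 islet, 1 of 4 neuron and 2 of 4 fibroblast genes, 1 of 5 mast cell genes (Kit), 2 of 5 megakaryocyte and platelet genes (Itga2b and Gp1bb) and 2 of 3 red cell genes, beside 60.8% of all genes.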

How the data were processed

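Chromatin from whole pancreas was immunoprecipitated by the authors for K4me3 and K27me3 and sequenced. Per the labels and the study's methods, reads were checked with FastQC and aligned to mm10 with Bowtie2, and HOMER findPeaks, in its histone mode, was run by the authors on every library with the matching input and the local background as reference. Tool versions are not given in the sources used here. The deposited lists hold peak start and end coordinates and no usable score, signal or count, so read depth is unknown and no interval was computed. The 12 lists of 6 mice (1 per mark and mouse, 3 mice per genotype, named as replicates in the labels) were used. Their 6 inputs were not analysed here, and libraries of other genotypes and 4 genes of the lists are not reported here. The smallest peak width was 501 bp for K4me3 and 5001 bp for K27me3.

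Peaks were intersected with GENCODE M21 on the same build, using the 21938 protein-coding genes of chromosomes 1 to 19, X and Y. The windows reach 3 kb to either side of every transcript start and are joined where they overlap. Covered length was computed with Python 3.11.15 and numpy 2.4.6. EZH2ΔSET and control mice were compared by exact two-sided permutation (20 arrangements of 3 mice against 3, smallest p = 0.1), with Benjamini-Hochberg adjustment over all genes. The tests planned over all genotypes are not reported. The code was tested on simulated data.

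The 7 genes and the gene lists were chosen with earlier results of these data known. Named beside the 7 are their neighbors and the 2 most similar genes each, and from the list of tuft cell genes up to 3 per role with the most calls of each mark. Those with no overlap between the groups, which replaced the planned tests in this rule, and the other listed genes were named after their values were seen. Alternatives were windows of 1 and 5 kb, a K27me3 window from 100 kb upstream to 3 kb downstream, only the 5′ end of the gene, K4me3 peaks of at least 1 kb, merging of peaks within 3 kb, equal numbers of the widest peaks, an overlap of 500 bp, the replicate number as a block and each mouse left out. Once the data had been seen, 3 more were added, namely a minimum width of 10 kb for K27me3 and of 600 bp for K4me3, and starts of basic transcripts only. A minimum of 5 kb for K27me3 removes no peak and was not run.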

Additional observations from a re-analysis of the deposited data

How the results depend on the processing

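The calls depended on the peak width and on which starts were used. K4me3 was called in 11 of 42 combinations of gene and mouse. There were 17 with a window of 5 kb, as Trpm5 joined in 6 mice, 6 with only the 5′ end of each gene, as Pou2f3 dropped out, 0 with K4me3 peaks of at least 1 kb, and 2 with equal numbers of the widest peaks (17400 K4me3 and 21420 K27me3 peaks kept). K27me3 was called in 6 combinations and in 3 with only the 5′ end. Under the other settings, those added later included, both counts stayed within 1.5 times.

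Differences that did not pass the test turned their sign in places, and some of the turned values rested on 1 mouse. K27me3 at the Dclk1 starts differed by 4.00 points between EZH2ΔSET and control, by -27.4 with only the 5′ end and by -0.345 to 12.7 with single mice left out. At the 5′ end control replicate 3 alone had K27me3. Over the Dclk1 body the difference of 6.04 points kept its sign, at 3.01 with equal numbers of peaks, 1.27 with K27me3 peaks of at least 10 kb and 3.95 to 10.2 with single mice left out. K4me3 at Pou2f3 differed by 1.18 points, by -1.91 with equal numbers of peaks and by -0.555 to 2.31 with single mice left out. K4me3 at Ptgs1 differed by 1.00 points, and by -0.925 with equal numbers of peaks. With equal numbers, Pou2f3 and Ptgs1 were each called for K4me3 in 1 mouse. With single mice left out, 0 to 1 of the 7 genes separated the groups. For K4me3 at starts this was Ptgs1, without control replicate 1 (1.29 points) or EZH2ΔSET replicate 3 (1.25 points), and for K27me3 at starts and over bodies it was Dclk1, without control replicate 3. The share of all genes that separate with a mouse left out was not computed, so these counts cannot be set beside it.

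With the replicate number as a block, 1 of the 7 genes was called for K4me3 at starts, namely Ptgs1, which was higher in EZH2ΔSET in all 3 pairs of the same number (1.00 points, exact p = 0.25, the smallest that 3 pairs allow). The share of all genes called with this block was not computed, so the count cannot be set beside it. The replicate numbers share no known batch. Deviations from the group means correlated at -0.0763 to 0.0349 within pairs, and 0 mice correlated best with their own number. With 3 mice a group and no depth, differences in peak width of the size of the spread between mice could not be resolved.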
